A study of Mus musculus with 8 samples.

Results

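The Egr, Nr4a and Ier early response genes are 10 genes listed by name, with earlier results of these data known: Egr1, Egr2, Egr3, Nab2, Nr4a1, Nr4a2, Ier2, Ier3, Ier5 and Csrnp1. All 10 were found among 23420 gene symbols of the deposited tables. RNA of ASZ cells, which were derived from a basal cell carcinoma of the mouse, was sequenced in 4 groups: RasV12-expressing cells with CBD, RasV12-expressing cells with DMSO, wild-type cells with CBD and wild-type cells with DMSO (called RasV12 and ASZ cells here). RasV12 is a mutant Ras, a small GTPase held in its active state, and DMSO is the vehicle. What CBD stands for, its dose, the length of exposure, the Ras gene used and the promoter that drives it are not given in the labels, nor is whether the RasV12 cells are 1 clone. Each group had 2 libraries and 1 deposited value per gene, in FPKM (fragments per kilobase of transcript per 1 M fragments, where M is 1e6), so no spread between libraries can be shown. Nothing says that the 2 libraries came from separate cultures, so the p-values may measure technical spread only. In bulk RNA, fewer cells that express a gene and less RNA per cell cannot be told apart.

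Egr1 was 29.6-fold higher with CBD than with DMSO in ASZ cells but 1.99-fold higher in RasV12 cells, and that difference of the lines passed its test. Csrnp1 was 10.8-fold higher with CBD in RasV12 cells and 7.50-fold higher in ASZ cells. Ier2 and Ier5 were also higher with CBD in both lines. Nr4a2 was lower in ASZ cells, while Nab2, Nr4a1 and Ier3 passed the test in neither line. Egr2 and Egr3 were under 0.1 FPKM in all 4 groups.

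Early response genes are switched on within minutes of a stimulus by transcription factors that the cell already holds, without new protein synthesis. In keratinocytes, growth factors acting through Ras, Raf, MEK and ERK phosphorylate ETS partners of serum response factor, and these switch on Egr and Fos genes, while cyclic AMP and calcium act through CREB on Nr4a genes. Most of the proteins are themselves regulators, and their RNAs are short-lived, so the level at any moment follows recent transcription closely.

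Sequences before the gene starts are shown for a pair of members that rose in both lines, Csrnp1 and Ier5, and for the nuclear receptor pair that did not, Nr4a1 and Nr4a2. Each is the 250 bases before a RefSeq start on GRCm38.p6, written 5′ to 3′ on the gene's strand. Capitals mark CRE half-sites, the core bound by CREB-type factors (TGACG), EGR sites (GCGNGGGCG) and AP-1 sites (TGACTCA), each searched on both strands. For Csrnp1, which has 4 RefSeq starts, the window with the most matches is shown.
Csrnp1, chr9:119983024-119983273, minus strand: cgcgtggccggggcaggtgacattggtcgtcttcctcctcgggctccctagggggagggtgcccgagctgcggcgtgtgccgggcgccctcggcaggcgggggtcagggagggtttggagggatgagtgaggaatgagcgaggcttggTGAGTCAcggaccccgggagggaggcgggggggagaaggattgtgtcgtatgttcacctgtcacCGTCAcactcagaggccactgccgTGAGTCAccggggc
Ier5, chr1:155099637-155099886, minus strand: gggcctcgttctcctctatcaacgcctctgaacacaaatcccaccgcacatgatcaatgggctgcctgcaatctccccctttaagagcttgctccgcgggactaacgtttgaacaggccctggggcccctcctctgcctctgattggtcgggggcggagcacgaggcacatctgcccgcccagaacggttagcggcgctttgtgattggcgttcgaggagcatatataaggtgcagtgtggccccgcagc
Nr4a1, chr15:101266596-101266845, plus strand: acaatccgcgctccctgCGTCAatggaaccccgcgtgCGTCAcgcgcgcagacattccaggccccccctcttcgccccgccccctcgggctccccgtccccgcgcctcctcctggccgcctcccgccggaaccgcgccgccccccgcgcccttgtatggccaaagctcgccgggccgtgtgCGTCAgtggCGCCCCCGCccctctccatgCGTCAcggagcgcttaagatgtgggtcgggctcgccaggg
Nr4a2, chr2:57124004-57124253, minus strand: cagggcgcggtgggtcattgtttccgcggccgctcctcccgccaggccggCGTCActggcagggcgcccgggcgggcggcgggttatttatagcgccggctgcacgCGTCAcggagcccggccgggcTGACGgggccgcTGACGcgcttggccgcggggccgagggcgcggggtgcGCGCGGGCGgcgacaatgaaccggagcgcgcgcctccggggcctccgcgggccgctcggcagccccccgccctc

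The receptor pair held 4 CRE half-sites and 1 EGR site each, and Ier5 held none of the motifs searched. The Csrnp1 window held 2 AP-1 sites and 1 CRE half-site, and its other 3 windows held 1 or 2 CRE half-sites and no AP-1 site. Of all 32851 RefSeq windows of that length, 17.8% held a CRE half-site, 4.70% an EGR site and 4.46% an AP-1 site. These shares are of windows with at least 1 match, so the numbers of matches per window have no background here. G and C made up 74.4% of the Nr4a1 window, 80% of Nr4a2, 68.4% of Csrnp1 and 60% of Ier5. No share among windows of like composition is given. The CArG box, the site of serum response factor, stood in 1.47% of windows. Among the members with a window it stood in Egr2 (4 of its 5 windows, some of which overlap). Windows were at hand for 7 of the 10 members. None was at hand for Egr1, Egr3 and Ier2, so no motif was searched before these genes. Nab2 and Ier3 held no match. These matches describe the letters in those windows and say nothing of which factor was bound.

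The estimated counts behind the members varied widely and were lowest for Egr2 and Egr3. The step between the lowest values gave an estimated 10.6 M fragments per library in RasV12 cells with CBD, 16.2 M in RasV12 cells with DMSO and 14.2 M in each ASZ group, if each group's FPKM is scaled to its own fragments. On that scale the 8 other members rested on between 94.7 estimated fragments over both libraries (Nr4a1, ASZ cells with CBD) and 10596 (Egr1, ASZ cells with CBD). Nr4a2, which fell in ASZ cells, rested there on 131 with CBD and 304 with DMSO. The FPKM of all rows summed to 659525 with CBD and 437753 with DMSO in RasV12 cells, and to 533682 with CBD and 373211 with DMSO in ASZ cells. Calls of the members that turn on how the groups are scaled are given beside each member. For all other genes only the calls under the deposited scaling are given. Adjusted p-values are the authors' p-values after Benjamini-Hochberg adjustment over all genes used of a table, errors of log2 ratios are implied by those p-values, and a gene rose or fell if its adjusted p was under 0.05. Krt5, a keratin of basal keratinocytes, was at 4583 FPKM with CBD and 3408 FPKM with DMSO in RasV12 cells. In ASZ cells it was at 6226 FPKM with CBD and 4360.05 FPKM with DMSO. Its change passed in neither line (adjusted p 0.361 in RasV12 cells and 0.111 in ASZ cells). Of the 7 basal markers, 1 rose and 1 fell in RasV12 cells, where 18.7% of all genes used rose and 24.4% fell. In ASZ cells 1 rose and 2 fell, where these shares were 14.0% and 42.4%. Trp63 fell in both lines, at 53.2 FPKM with CBD and 92.0 FPKM with DMSO in RasV12 cells. In ASZ cells Trp63 was at 20.7 FPKM with CBD and 64.6 FPKM with DMSO. The fibroblast markers (6 listed for RasV12 cells and 7 for ASZ cells) summed to at most 1.50 FPKM in any group. The 5 endothelial markers summed to 23.4 FPKM with CBD and 16.5 FPKM with DMSO in RasV12 cells, and to 9.48 FPKM with CBD and 15.6 FPKM with DMSO in ASZ cells. Nearly all of that was Pecam1, which fell in ASZ cells (adjusted p 0.0157), and Kdr was listed at 0 in all 4 groups. The 5 melanocyte markers summed to 3.51 FPKM with CBD and 10.6 FPKM with DMSO in RasV12 cells, and to 5.76 FPKM with CBD and 8.30 FPKM with DMSO in ASZ cells, with Mlana listed at 0 in all 4 groups. Of these Mitf fell in both lines, at 1.48 FPKM with CBD and 9.76 FPKM with DMSO in RasV12 cells and at 1.05 FPKM with CBD and 7.56 FPKM with DMSO in ASZ cells, and Tyr rose in ASZ cells, at 4.11 FPKM with CBD and 0.276 FPKM with DMSO. The 6 immune markers summed to 54.8 FPKM with CBD and 32.4 FPKM with DMSO in RasV12 cells, and to 17.8 FPKM with CBD and 9.64 FPKM with DMSO in ASZ cells. Nearly all of that was the lysosomal gene Cd68, which rose in both lines (adjusted p 0.0370 in RasV12 cells and 0.0093 in ASZ cells). Csf1r rose in ASZ cells, at 1.25 FPKM with CBD and 0.588 FPKM with DMSO (adjusted p 0.0195). In RasV12 cells Csf1r was at 0.929 FPKM with CBD and 0.675 FPKM with DMSO. Of the leukocyte genes, Itgam was listed at 0 in all 4 groups and Ptprc at no more than 0.0049 FPKM. The part of these markers in the results was not tested.

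**Figure D1:**
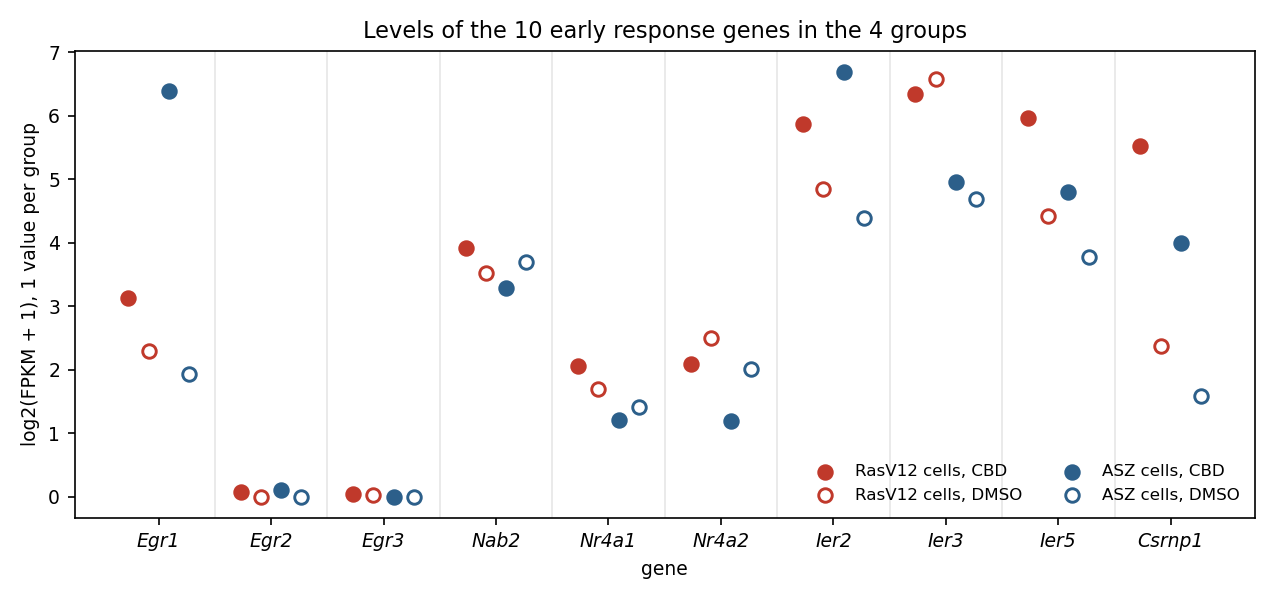
Level of each of the 10 genes as log2(FPKM + 1), 1 deposited value per group and no error bar because no value per library was at hand. Filled points are CBD and open points DMSO, red RasV12 cells and blue ASZ cells. Egr1 stands at 83.0 FPKM in ASZ cells with CBD and at 2.80 to 7.79 FPKM in the other 3 groups, and Egr2 and Egr3 lie near 0.

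Egr1 encodes a zinc finger transcription factor that binds GC-rich sites and is among the most widely used readouts of ERK signalling. It was at 7.79 FPKM with CBD and 3.90 FPKM with DMSO in RasV12 cells. In ASZ cells it was at 83.0 FPKM with CBD and 2.80 FPKM with DMSO. The ASZ cells with CBD thus stand far above the other 3 groups, which lie within 5 FPKM of each other. In ASZ cells the log2 FPKM ratio was 4.89 with an SE of at most 0.60, at a p-value listed as 0 in the authors' deposited table, and its rise ranked 13 of 10703 genes on the log2(FPKM + 1) scale. In RasV12 cells the log2 ratio was 1.00 (SE 0.36, adjusted p 0.0167 from the authors' p-values with Benjamini-Hochberg adjustment). That rise did not pass when the groups of the RasV12 table were scaled to equal FPKM sums (adjusted p 0.376) or to equal fragment mass, the sum of FPKM times transcript length (adjusted p 0.183).

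Egr2 and Egr3 encode close relatives of Egr1 that bind the same GC-rich sequence. Egr2 was at 0.0478 FPKM with CBD in RasV12 cells and at 0.0754 FPKM with CBD in ASZ cells, and was listed at 0 with DMSO in both lines. These values come to an estimated 3.01 fragments over both libraries in RasV12 cells and 6.37 in ASZ cells. Egr3 was at 0.0246 FPKM with CBD and 0.0205 FPKM with DMSO in RasV12 cells, and was listed at 0 in both ASZ groups. Both genes lay under the minimum of 1 FPKM and entered no comparison.

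Nab2 encodes a corepressor that binds Egr1 and its relatives, is itself switched on by them and limits their activity. It was at 14.2 FPKM with CBD and 10.5 FPKM with DMSO in RasV12 cells (log2 ratio 0.43, SE 0.51, adjusted p 0.509). In ASZ cells it was at 8.71 FPKM with CBD and 11.9 FPKM with DMSO (log2 ratio -0.45, SE 0.30, adjusted p 0.199). The lowest Nab2 level stood in ASZ cells with CBD, the group with the highest Egr1 level. With equal FPKM sums Nab2 passed as lower in ASZ cells (adjusted p 0.0029). Exons of Nab2 overlap those of Stat6 on the opposite strand by 40 bases and those of the noncoding Gm16229 by 864 of 2582 bases in GENCODE M21, and no source states that counting used strand.

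Nr4a1 and Nr4a2 encode orphan nuclear receptors that act without a known hormone and are induced in many tissues by cyclic AMP, calcium and growth factors. Nr4a1 was at 3.16 FPKM with CBD and 2.23 FPKM with DMSO in RasV12 cells (adjusted p 0.344), and at 1.30 FPKM with CBD and 1.66 FPKM with DMSO in ASZ cells (adjusted p 0.482). Nr4a2 was at 3.23 FPKM with CBD and 4.64 FPKM with DMSO in RasV12 cells (log2 ratio -0.52, SE 0.40, adjusted p 0.291). In ASZ cells Nr4a2 was at 1.29 FPKM with CBD and 3.01 FPKM with DMSO (log2 ratio -1.23, SE 0.41, adjusted p 0.0060). Neither receptor was called higher in either line, and Nr4a2 fell in ASZ cells. This fall did not pass with the median ratio of all genes set to 0 (adjusted p 0.0856) or with genes centred within 10 bins of transcript length (adjusted p 0.370), while in RasV12 cells Nr4a2 passed as lower with equal FPKM sums (adjusted p 0.0146) and with equal fragment mass (adjusted p 0.0478).

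Ier2 encodes a small nuclear protein of the early growth factor response. It was at 57.3 FPKM with CBD and 27.7 FPKM with DMSO in RasV12 cells (log2 ratio 1.05, SE 0.30, adjusted p 0.0025). In ASZ cells it was at 102 FPKM with CBD and 19.8 FPKM with DMSO (log2 ratio 2.36, SE at most 0.29), at a p-value listed as 0 in the authors' deposited table. Ier2 had the highest level of the 10 genes in ASZ cells with CBD, at 38.1% of their summed FPKM. The rise in RasV12 cells did not pass with equal FPKM sums (adjusted p 0.220), equal fragment mass (adjusted p 0.0757) or length bins centred (adjusted p 0.0741).

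Ier5 encodes a protein related to Ier2 by its N-terminal part, which in human cells acts on heat shock factor and on protein phosphatase. It was at 61.1 FPKM with CBD and 20.5 FPKM with DMSO in RasV12 cells (log2 ratio 1.58, SE at most 0.39, adjusted p 0.000324). In ASZ cells it was at 26.7 FPKM with CBD and 12.6 FPKM with DMSO (log2 ratio 1.08, SE 0.23, adjusted p 1.33e-05). The rise was 2.99-fold in RasV12 cells and 2.11-fold in ASZ cells, and Ier5 passed in both lines under each of the 4 other scalings.

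Ier3 encodes a stress-inducible protein that is a substrate of ERK and modulates cell survival. It was at 80.2 FPKM with CBD and 94.9 FPKM with DMSO in RasV12 cells (log2 ratio -0.24, SE 0.28, adjusted p 0.497). In ASZ cells it was at 29.9 FPKM with CBD and 24.8 FPKM with DMSO (log2 ratio 0.27, SE 0.26, adjusted p 0.386). Both RasV12 groups lay above both ASZ groups, and the change with CBD passed the test in neither line. Ier3 passed as lower in RasV12 cells with equal FPKM sums (adjusted p 0.0076), equal fragment mass (adjusted p 0.0449) and length bins centred (adjusted p 0.0103), and as higher in ASZ cells with the median ratio set to 0 (adjusted p 0.0133). In RasV12 cells its change was below 0 under the deposited scaling and the 4 others. In ASZ cells the sign turned with the scaling, between -0.38 with length bins centred and 0.69 with the median ratio set to 0 on the log2(FPKM + 1) scale.

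Csrnp1 encodes a nuclear protein with a cysteine-rich and a serine-rich region, first described as a gene induced by axin in human cells. It was at 45.1 FPKM with CBD and 4.17 FPKM with DMSO in RasV12 cells (log2 ratio 3.43, SE at most 0.85, adjusted p 0.000324). In ASZ cells it was at 14.9 FPKM with CBD and 1.99 FPKM with DMSO (log2 ratio 2.91, SE at most 0.35), at a p-value listed as 0 in the authors' deposited table. Both CBD groups lay above both DMSO groups, and the rise passed in both lines under each of the 4 other scalings. On the log2(FPKM + 1) scale its rise ranked 30 of 11075 genes in RasV12 cells and 46 of 10703 in ASZ cells.

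**Figure D2:**
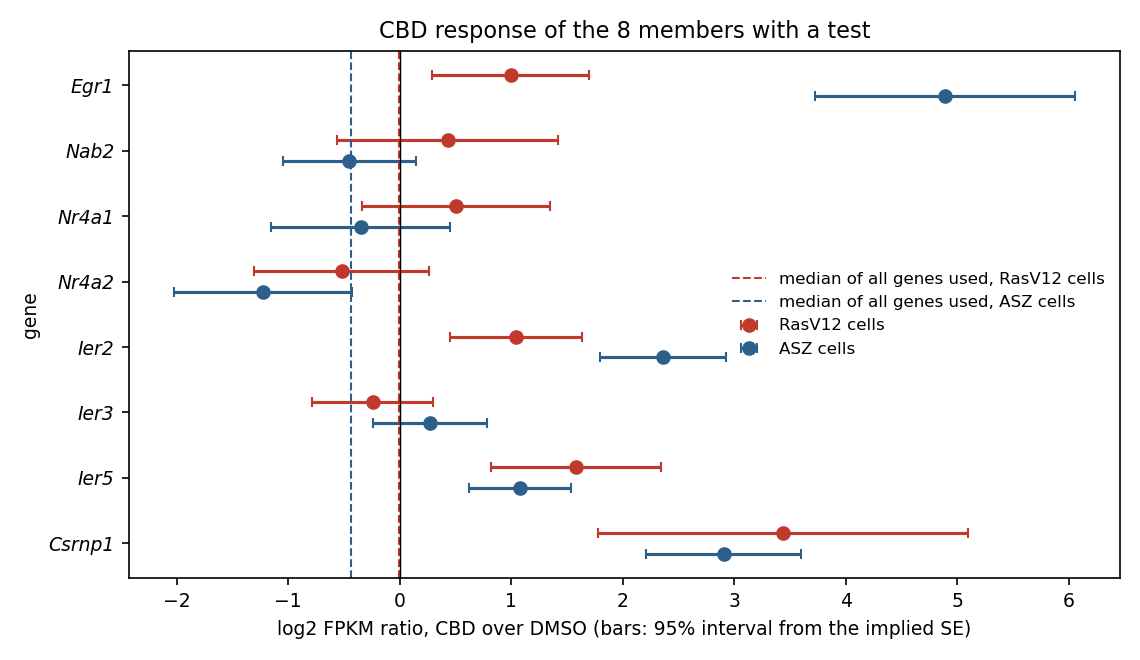
Log2 FPKM ratio of CBD over DMSO for the 8 members with a test, RasV12 cells in red above ASZ cells in blue. Bars are 95% intervals from standard errors implied by the deposited p-values (too wide where p was at its lowest value), and dashed lines are the medians of all genes used, -0.01 in RasV12 cells and -0.44 in ASZ cells. Egr1 is the member whose intervals in the 2 lines lie farthest apart.

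Of the 8 members tested, 4 rose and 0 fell in RasV12 cells at an adjusted p under 0.05, where 18.7% of all genes used were called higher and 24.4% lower. At a p-value under 0.05 before adjustment the count of members lower was also 0. In ASZ cells 4 of 8 rose and 1 fell, where 14.0% of all genes used were called higher and 42.4% lower. The 4 that rose were Egr1, Ier2, Ier5 and Csrnp1 in each line. The median change on the log2(FPKM + 1) scale was 0.62 over the 8 members in RasV12 cells, against -0.01 over all genes used, and 0.64 over the 8 members in ASZ cells, against -0.37 over all genes used. With equal FPKM sums 2 rose and 2 fell in RasV12 cells, so the counts in that line turn on the scaling, and 4 rose and 2 fell in ASZ cells. That scaling moves the log2 ratio of every gene by -0.59 in RasV12 cells and by -0.52 in ASZ cells. The shares of all genes called under it are not given, so these counts cannot be read against them. The authors' own filtered sheet for RasV12 cells held 2702 genes of 23746 rows, with 3 members among them (Ier2, Ier5 and Csrnp1). That for ASZ cells held 4489 genes of 23744 rows, with 4 members (these and Egr1). The highest p-value of the authors' test, before adjustment, was 0.00095 in the RasV12 sheet and 0.238 in the ASZ sheet. The sheets were thus filtered differently, and their counts of members cannot be set against each other.

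The responses of the lines were then compared, gene by gene, as the log2 FPKM ratio in RasV12 cells minus that in ASZ cells. Egr1 differed by -3.89 (SE 0.70, 95% interval -5.25 to -2.53, adjusted p 5.56e-06), and Ier2 by -1.32 (SE 0.42, 95% interval -2.14 to -0.50, adjusted p 0.0246). The ratio of these genes was thus smaller in RasV12 cells. The other 6 members did not pass, with intervals of -1.27 to 2.33 for Csrnp1, -0.39 to 1.39 for Ier5, -1.26 to 0.23 for Ier3, -0.27 to 2.04 for Nab2, -0.31 to 2.02 for Nr4a1 and -0.41 to 1.83 for Nr4a2. For Egr1, Ier2, Csrnp1 and Ier5 an error behind the interval is an upper bound, so these intervals may be too wide. For Csrnp1 and Ier5 a difference could thus have been missed. Of all 10405 genes tested, 0.577% were called more negative and 8.65% more positive in RasV12 cells, and 2 members were called more negative and 0 more positive (also 0 more positive before adjustment). The p-values of the 2 tables differ in kind, and with both held at or above 5e-05, the lowest of the RasV12 table, Egr1 still passed (adjusted p 0.0459) and Ier2 did not (adjusted p 0.263). No source used here states whether 1 program version made both tables.

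**Figure D3:**
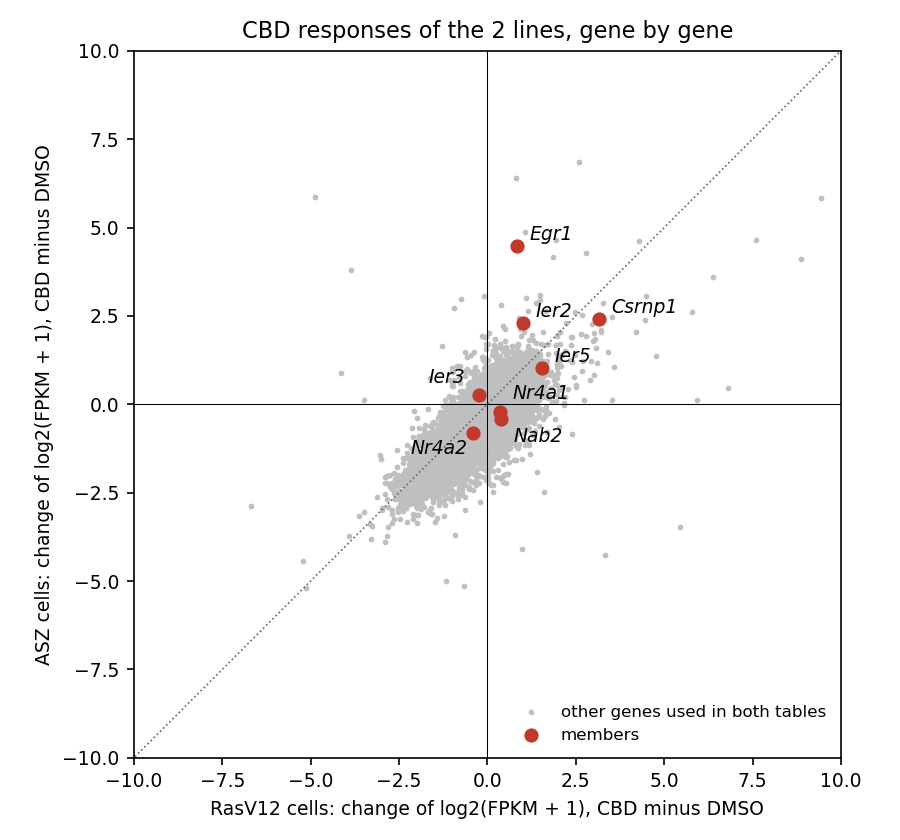
Change of log2(FPKM + 1) with CBD in RasV12 cells (horizontal) and in ASZ cells (vertical) for every gene used in both tables (grey) and the 8 members tested (red). The dotted line marks equal change. Egr1 (0.84 in RasV12 cells and 4.46 in ASZ cells) and Ier2 (1.02 in RasV12 cells and 2.31 in ASZ cells) lie above it, and Csrnp1 (3.16 in RasV12 cells and 2.41 in ASZ cells) below it.

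Set side by side without a test, the levels of the lines differed most for Ier3 under DMSO, at 94.9 FPKM in RasV12 cells and 24.8 FPKM in ASZ cells. On the log2(FPKM + 1) scale, with each group centred on its own median, this was a difference of 1.72 for RasV12 minus ASZ, where the 10% and 90% quantiles of 11206 genes were -0.52 and 0.59. Csrnp1 was at 0.62 and the other 6 tested members between -0.34 and 0.48. Under CBD the difference was -3.88 for Egr1, -1.44 for Ier2, 0.91 for Csrnp1 and 0.77 for Ier3, where these quantiles were -0.76 and 0.59. Within the RasV12 DMSO group the order of levels from high to low was Ier3, Ier2, Ier5, Nab2, Nr4a2, Csrnp1, Egr1 and Nr4a1, and within the ASZ DMSO group it was Ier3, Ier2, Ier5, Nab2, Nr4a2, Egr1, Csrnp1 and Nr4a1. With CBD it was Ier3, Ier5, Ier2, Csrnp1, Nab2, Egr1, Nr4a2 and Nr4a1 in RasV12 cells, and Ier2, Egr1, Ier3, Ier5, Csrnp1, Nab2, Nr4a1 and Nr4a2 in ASZ cells. No value per library was at hand, so which neighbours in these orders differ beyond their spread cannot be given.

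**Figure D4:**
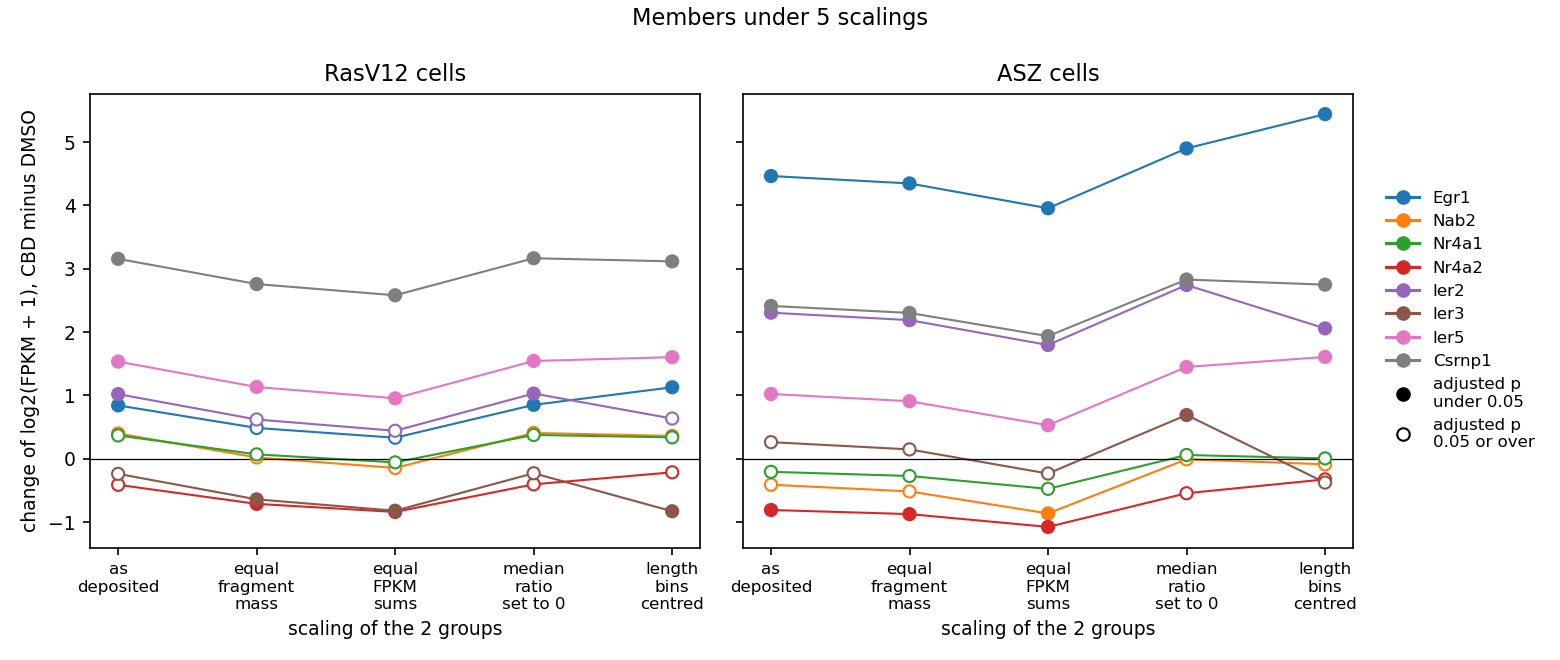
Change of log2(FPKM + 1) with CBD for the 8 members tested under the deposited scaling and 4 others, RasV12 cells left and ASZ cells right. Filled points have an adjusted p under 0.05. Csrnp1 and Ier5 are filled throughout in both lines, Egr1 and Ier2 throughout in ASZ cells, and Egr1 in RasV12 cells is open with equal fragment mass (0.49) and equal FPKM sums (0.33).

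The members differ in build, and the share of genes called with CBD varied with transcript length. In GENCODE M21 on GRCm38, Ier2 and Ier5 consist of 1 exon each, Egr1 of 2 and Csrnp1 of 4, while Nab2 has 7 and Nr4a1 and Nr4a2 have 8. Ier3, which did not pass, has 2 exons and the shortest span, 1240 bases. Of all genes with 1 exon, 13.6% were called higher in RasV12 cells and 13.0% in ASZ cells, and of genes with over 2 exons 19.1% were called higher in RasV12 cells and 14.0% in ASZ cells. With genes split into 10 bins of transcript length, of those in the bin of Egr1 (4484 bases), 14.0% were called higher in RasV12 cells and 6.05% in ASZ cells. For Ier2 (1522 bases) these shares were 26.1% in RasV12 cells and 27.5% in ASZ cells, and for Ier5 (3276 bases) 17.3% in RasV12 cells and 8.72% in ASZ cells. With the median of genes of like length subtracted, Egr1, Ier5 and Csrnp1 passed as higher in both lines, and Ier2 passed in ASZ cells but not in RasV12 cells (adjusted p 0.0741).

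ATTTA, the core of AU-rich elements that mark many short-lived RNAs, was counted in the 3′ untranslated regions. It stood at least 3 times in 7 of 10 members and at least once in 9, against 36.5% and 67.8% of 10569 genes used. Ier3 held 5 in 613 bases, Csrnp1 held 5 in 1075, Egr1 held 2 in 1216, Ier5 held 2 in 2143 and Ier2 held none in 755. Among the 4 genes that rose in both lines the count thus ran between 0 and 5.

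Of the 7 relatives of the members, Ier5l, which is related to Ier5, rose in both lines, at 118 FPKM with CBD and 39.6 FPKM with DMSO in RasV12 cells (adjusted p 0.000324) and at 62.3 FPKM with CBD and 30.4 FPKM with DMSO in ASZ cells (adjusted p 3.82e-05). Csrnp2 was at 2.97 FPKM with CBD and 4.21 FPKM with DMSO in RasV12 cells (adjusted p 0.264) and fell in ASZ cells, at 1.64 FPKM with CBD and 5.12 FPKM with DMSO (adjusted p 9.07e-07). Nab1, the other corepressor of the family, was at 22.8 FPKM with CBD and 21.0 FPKM with DMSO in RasV12 cells (adjusted p 0.740) and fell in ASZ cells, at 11.9 FPKM with CBD and 17.5 FPKM with DMSO (adjusted p 0.0354). Ier3ip1 was at 23.8 FPKM with CBD and 16.5 FPKM with DMSO in RasV12 cells (adjusted p 0.176), and at 18.3 FPKM with CBD and 13.0 FPKM with DMSO in ASZ cells (adjusted p 0.108). Nr4a3, the remaining receptor of its family, was at 1.23 FPKM with CBD and 0.710 FPKM with DMSO in RasV12 cells (adjusted p 0.269), and at 0.315 FPKM with CBD and 0.916 FPKM with DMSO in ASZ cells, under the minimum. Egr4 and Csrnp3 were under 0.05 FPKM in every group.

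Of 31 other early response genes tested, 15 rose and 4 fell in RasV12 cells, at a median change of 0.34, and 16 rose and 9 fell in ASZ cells, at a median of 0.71. Over all genes used, 18.7% rose and 24.4% fell in RasV12 cells at a median of -0.01, and 14.0% rose and 42.4% fell in ASZ cells at a median of -0.37. Of the 31 early response genes, 12 rose in both lines and 3 fell in both, and the share of all genes that did so is not given. Fos, a partner in AP-1, was at 17.1 FPKM with CBD and 1.62 FPKM with DMSO in RasV12 cells, and at 23.9 FPKM with CBD and 0.278 FPKM with DMSO in ASZ cells. Hbegf, an EGF receptor ligand, had the largest change of the list in RasV12 cells, 4.19 on the log2(FPKM + 1) scale against 2.06 in ASZ cells. Gadd45b, a stress-induced regulator, changed by 3.28 in RasV12 cells and 2.87 in ASZ cells, and Plk3, a stress-responsive kinase, by 3.21 in RasV12 cells and 2.05 in ASZ cells. A pair was called in opposite directions. Dusp1, a phosphatase of MAP kinases, was at 27.6 FPKM with CBD and 54.1 FPKM with DMSO in RasV12 cells but at 46.8 FPKM with CBD and 6.19 FPKM with DMSO in ASZ cells (difference adjusted p 3.98e-13). Ccn1, a matrix protein, was at 138 FPKM with CBD and 25.4 FPKM with DMSO in RasV12 cells and at 28.8 FPKM with CBD and 52.4 FPKM with DMSO in ASZ cells (difference adjusted p 4.60e-05). Dusp1 thus shared with Egr1 and Ier2 a smaller ratio in RasV12 cells, and Ccn1 did not.

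Of 13 factors that act upstream of early response genes, 2 rose and 6 fell in RasV12 cells, at a median change of -0.92, and 0 rose and 9 fell in ASZ cells, at a median of -0.99, where 24.4% of all genes used fell in RasV12 cells (median -0.01) and 42.4% in ASZ cells (median -0.37). In their bins of transcript length, the share of genes called lower ran between 13.3% (Mef2d) and 47.6% (Mrtfb and Sp1) in RasV12 cells. In ASZ cells it ran between 24.3% (Mef2d) and 79.2% (Mrtfb and Sp1). By the authors' p-values with Benjamini-Hochberg adjustment 5 factors fell in both lines, and the share of all genes that did so is not given. Mrtfa, a coactivator of serum response factor, was at 6.46 FPKM with CBD and 29.2 FPKM with DMSO in RasV12 cells and at 2.40 FPKM with CBD and 24.2 FPKM with DMSO in ASZ cells, and fell in both. Its relative Mrtfb changed by -1.42 in RasV12 cells (adjusted p 0.0657) and fell by 2.19 in ASZ cells. Creb1 fell by 1.38 in RasV12 cells and by 1.58 in ASZ cells. Srf, named here after its values were seen, was at 38.1 FPKM with CBD and 17.9 FPKM with DMSO in RasV12 cells (adjusted p 0.000324) and at 17.8 FPKM with CBD and 22.2 FPKM with DMSO in ASZ cells (adjusted p 0.238), and its response differed between the lines (adjusted p 0.0028).

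Of 11 genes known as targets of EGR factors and tested, 4 rose and 0 fell in RasV12 cells, at a median change of 0.40, and 1 rose and 3 fell in ASZ cells, at a median of -0.18. Over all genes used, 18.7% rose and 24.4% fell in RasV12 cells (median -0.01), and 14.0% rose and 42.4% fell in ASZ cells (median -0.37). Fn1, a matrix protein, rose in both lines, to 399.5 FPKM with CBD against 60.8 FPKM with DMSO in RasV12 cells and to 356 FPKM with CBD against 151 FPKM with DMSO in ASZ cells. Vegfa and Tgfb1, growth factor genes, rose in RasV12 cells, at 33.3 FPKM with CBD and 9.86 FPKM with DMSO for Vegfa and at 88.3 FPKM with CBD and 36.3 FPKM with DMSO for Tgfb1, and neither passed in ASZ cells (adjusted p 0.241 for Vegfa and 0.455 for Tgfb1). Pdgfb, a growth factor gene, fell in ASZ cells, at 6.56 FPKM with CBD and 21.1 FPKM with DMSO. The list includes Nab2 and Nab1, described above.

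**Figure D5:**
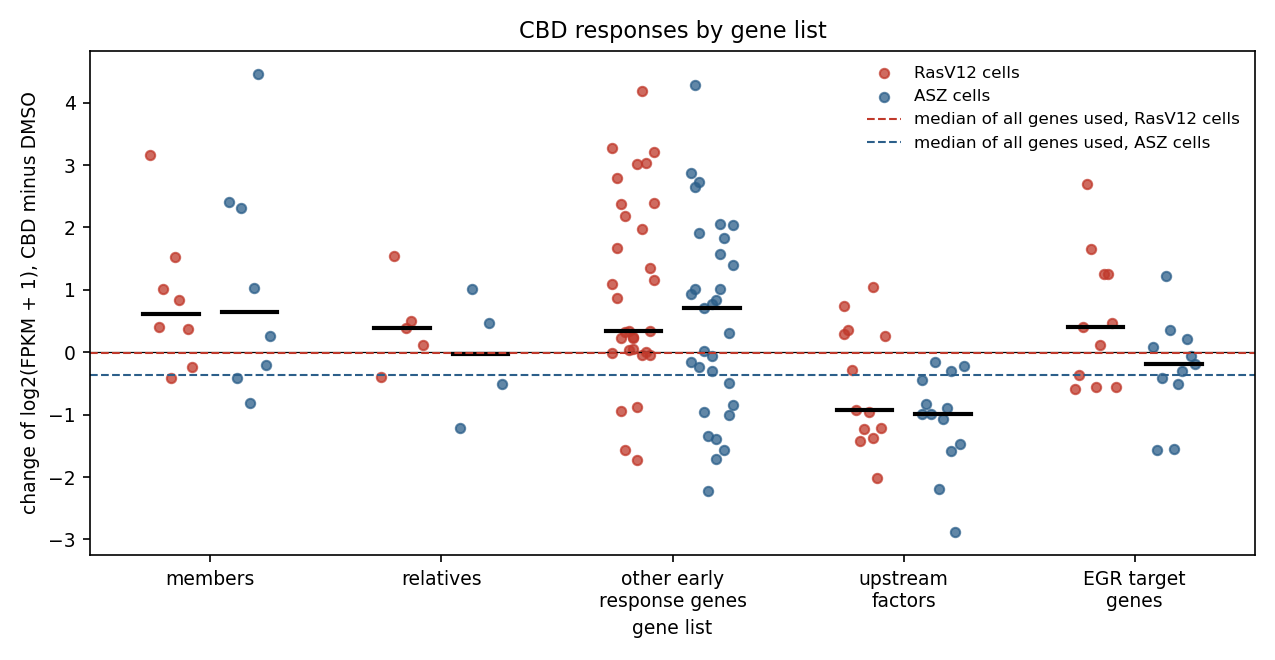
Change of log2(FPKM + 1) with CBD for each gene used of 5 lists, RasV12 cells in red left of ASZ cells in blue; black bars are list medians and dashed lines the medians of all genes used. The members' medians lie at 0.62 in RasV12 cells and 0.64 in ASZ cells, and those of the upstream factors at -0.92 in RasV12 cells and -0.99 in ASZ cells.

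By Euclidean distance over the changes in both lines, on the log2(FPKM + 1) scale and among 10437 genes, the genes most like Egr1 were the small nucleolar RNAs Snora28 (distance 0.46), Snora21 (1.07) and Snord35a (1.12), then Omd (1.49) and the noncoding RNA Malat1 (1.51). The 3 small nucleolar RNAs were listed at 0 in ASZ cells with DMSO. Omd was at 3.83 FPKM with CBD and 1.26 FPKM with DMSO in RasV12 cells and at 19.2 FPKM with CBD and 1.53 FPKM with DMSO in ASZ cells. No other member was among these 5.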

How the data were processed

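RNA was measured in 8 libraries, 2 in each of 4 groups, prepared with a TruSeq RNA kit, per the labels' protocols. TopHat, Cufflinks and the mm9 build are named, without versions, per the submitters' processing notes. The authors deposited 1 FPKM value per gene and group, each over the 2 libraries of that group per the file headers, and a p-value for CBD against DMSO before adjustment. The authors' filtered sheets of log2 ratios were read only to see which members they hold. No source used here states how the authors' test estimated spread, and no value per library was used. Of the genes used for ASZ cells, 554 had a p-value listed at 0. In the RasV12 table every p-value lay on a step of 5e-05, and 1707 genes shared the lowest step.

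Rows without a gene name or with a name turned into a date were left out, outdated symbols were updated through RefSeq synonyms, and a repeated symbol kept its highest row if the others were under 10% of it. A gene entered a comparison if it had a test and reached 1 FPKM in either group of the table, which left 11075 genes in the RasV12 table and 10703 in the ASZ table. Benjamini-Hochberg adjustment of the deposited p-values ran over these genes, and an adjusted p under 0.05 was called higher or lower. A standard error of each log2 FPKM ratio was implied from its p-value through the normal quantile. It is an upper bound at the lowest p-value. The difference of the responses, RasV12 minus ASZ, was put to a normal test (two-sided) with these errors over 10405 genes, again with Benjamini-Hochberg adjustment. Levels of the lines come from separate tables and were set side by side without a test, after subtraction of each group's median log2(FPKM + 1).

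The alternatives were 4 other scalings, 2 other filters on FPKM, a threshold of 0.01, a pseudocount of 0.1, repeated symbols left out, and a common floor on the p-values. The steps were tested on simulated data with Python 3.11.15, NumPy 2.4.6, pandas 2.3.3 and SciPy 1.17.1. Transcript lengths, exons and 3′ untranslated regions came from GENCODE M21, and sequences before gene starts from RefSeq, on GRCm38. Every member is named. Of the other lists, genes with calls in opposite directions and the 3 with the largest change in each line are named, and of the relatives all, except 1 gene that is not reported here. The members and lists were chosen with earlier results of these data known.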

Additional observations from a re-analysis of the deposited data

Results flagged for a closer look

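The response of Egr1 differed between the lines by -3.89 on the log2 scale (RasV12 minus ASZ), and that of Ier2 by -1.32, each by a test of the difference itself on standard errors implied by the authors' p-values. The Ier2 difference did not pass with p-values of both tables held at or above 5e-05.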

How the results depend on the processing

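No paired analysis was possible because the tables hold 1 value per group, and for the same reason no library could be left out. Shares of all genes called are given for the main settings only. The counts below thus show which calls of members moved, and cannot be read against all genes. In RasV12 cells the count of members higher was 4, but 2 with equal FPKM sums and with equal fragment mass, 3 with length bins centred (without Ier2) and 3 at a threshold of 0.01 (without Egr1). The count of members lower there was 0, and 2 with equal FPKM sums, 2 with equal fragment mass and 1 with length bins centred. In ASZ cells the count of members lower was 1, and 2 with equal FPKM sums, 0 with the median ratio set to 0, 0 with length bins centred and 0 with a minimum of 5 FPKM, which leaves Nr4a2 out. The count of members with a more negative response in RasV12 cells was 2, and 1 at a threshold of 0.01 and 1 with floored p-values. The count of members higher in ASZ cells was 4 or 5 under each alternative run. The Egr1 difference ran between -3.89 and -4.56 under the alternatives run. Using no FPKM minimum, or leaving out repeated symbols, changed no call among the members, and a pseudocount cannot change a call, since calls rest on the deposited p-values. Under equal FPKM sums across the 4 groups, the CBD level difference (RasV12 minus ASZ) was -3.45 for Egr1 and 1.08 for Ier3. The estimated depth limits Egr2 and Egr3 most. It also limits Nr4a1 and Nr4a2 in ASZ cells, at 94.7 and 131 estimated fragments with CBD over both libraries.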
